A study of Mus musculus with 3 samples.

Results

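The 10 genes described here mark the cells that line blood vessels: Pecam1, Emcn, Stab1, Stab2, Plvap, Esam, Cldn5, Sox17, Sox18 and Egfl7. They were chosen by name, as markers of the sinusoids and arteries of bone marrow, out of 19938 genes measured by a probe set (a group of array probes read as 1 value) that is annotated to a single gene. Each of the 10 had 1 such probe set, so no choice between probe sets was needed. Their levels were read in stromal cells sorted from the marrow of tibia, femur and pelvis at baseline, in a study of the stromal sources of CXCL12, a chemokine that hematopoietic stem cells need. RNA of 3 samples was amplified and hybridised to 3 single-colour Affymetrix arrays. The CAR group, 2 arrays, holds CXCL12-abundant reticular cells from 2 CXCL12-GFP knock-in mice, in which the fluorescent protein reports the Cxcl12 locus; the labels do not say whether they carry 1 or both copies. The PaS group, 1 array, holds PDGFRa+ Sca+ CD45- lineage- cells combined from 3 Prx1-Cre Rosa26Ai9/+ Cxcl12gfp/+ mice, that is, with a Cre driven by a limb mesenchyme promoter, a red reporter and a heterozygous GFP allele at Cxcl12. All groups therefore carry a modified Cxcl12 locus, the groups differ in genotype as well as in cell type, and PaS has no replicate. The labels give no ages.

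Marrow sinusoids are wide, thin-walled venous vessels through which blood cells enter the circulation, and their endothelium carries scavenger receptors that clear waste from the blood. Arteries and arterioles enter the marrow first, have tighter junctions and use transcription factors of the SoxF family. Endothelial cells lie next to the reticular stroma in the marrow, and neither sort named an endothelial antigen in its labels, apart from what the lineage antibodies may include.

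The values are signal intensities, given here as log2, and the CAR values are given for array 1 first and array 2 second. On this scale the median over all genes was 3.74 and 3.75 in CAR cells and 3.77 on the PaS array, while the 5th percentile was 1.87 and 1.69 against 2.40. The low end of the PaS array thus lay higher, so a dim gene can read lower in CAR cells although its expression is equal. No detection calls were used, so a value near or below the median cannot be told from background. The level of 2 genes of the sort runs against the label of the PaS array: Pdgfra, the receptor of the gate, stood at 7.52 and 7.97 in CAR cells and at 4.33 on the PaS array, and Ptprc, which encodes the excluded CD45, at 5.11 and 5.01 against 8.27. Cxcl12 stood at 10.94 and 11.11 against 7.76. All 11 measured genes of a CAR stroma list were higher on the CAR arrays, led by Lepr, Igfbp4, Ebf3 and Adipoq. Of 5 measured genes of a Sca-1+ stroma list 1 was higher (Pdgfra) and 2 were lower (Dpt and Thy1). By the same test, used below, 8.56% of all genes were called higher and 6.42% lower. These 2 lower genes go with the label: Dpt read 2.60 and 2.27 in CAR cells and 8.10 on the PaS array, and Thy1 3.56 and 3.69 against 7.67. On the PaS array they stood at the 99.1 and 98.7 percentiles. Pi16 and Cd248 were not called. Ly6a, which encodes Sca-1, is not analysed here. Every direction below therefore sets CAR cells beside the array labelled PaS, whatever cells it holds.

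Of the 10 endothelial markers, 3 were lower in CAR cells and 0 were higher (limma, Benjamini-Hochberg adjusted p under 0.05 over all 19938 genes). All 3 are genes of sinusoidal or venous endothelium: Emcn, Stab2 and Stab1. Over all genes 6.42% were called lower and 8.56% higher. On both CAR arrays the same 3 markers were lower by 2-fold or more, as were 8.92% of all genes, and none was higher by that much, as were 10.9% of all genes. The median difference over the 10 (CAR minus PaS) was −0.84 log2 units, and over all genes it was −0.10. In 8 of the 10, both CAR arrays lay below the PaS array, as they did for 46.8% of all genes; in 1, Plvap, both lay above (37.4% of all genes), and in Cldn5 they lay on either side. The other 7 markers had adjusted p between 0.100 and 0.823, and for none of them does this show equal expression. At an unadjusted p under 0.05 in limma, 5 of the 10 were lower and 0 higher, beside 18.0% and 17.1% of all genes. The fit has 1 residual degree of freedom, so all spread is that of the CAR pair, and the pooled PaS sample is taken to be as variable.

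**Figure D1:**
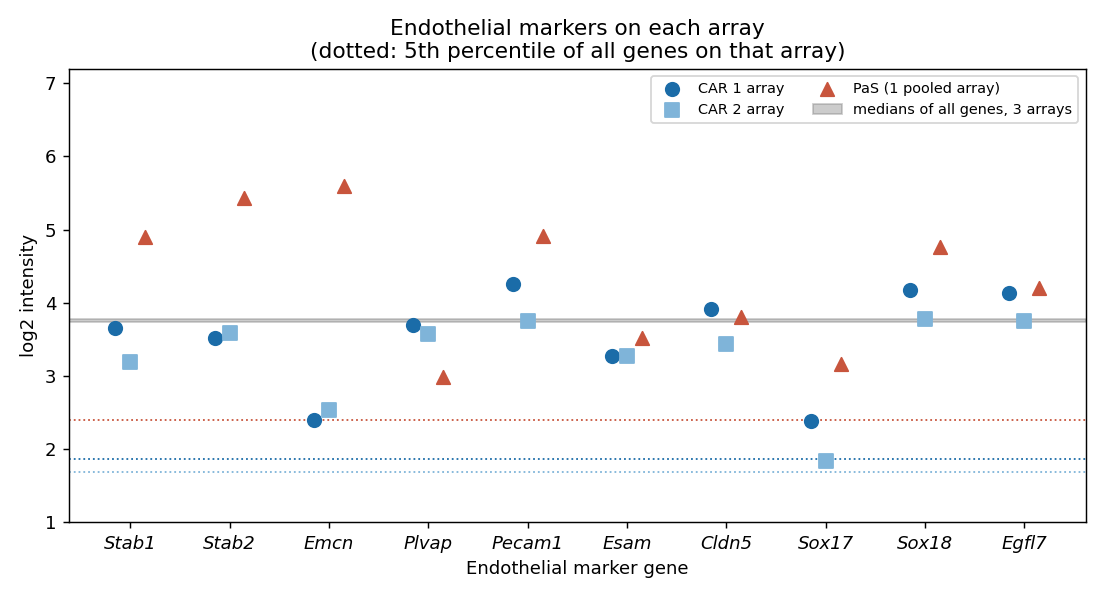
Log2 intensity (vertical axis) of the 10 endothelial markers (horizontal axis) on CAR array 1 (circles), CAR array 2 (squares) and the pooled PaS array (triangles); the grey band spans the medians of all genes on the 3 arrays and dotted lines mark each array's 5th percentile. Stab1, Stab2 and Emcn stand clearly above the band on the PaS array only, at 4.90, 5.44 and 5.59, while Plvap is the 1 marker with both CAR arrays above the PaS array.

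Stab1 and Stab2 encode stabilins, large scavenger receptors of sinusoidal endothelium that take up modified lipoproteins, hyaluronan and other waste. Stab2 stood at 3.52 and 3.59 in CAR cells and at 5.44 on the PaS array. The CAR values are close together and near the median of all genes, and both lie well below the PaS value. The difference was −1.88 ± 0.28 log2 units (SE; limma adjusted p = 0.0227), or 3.68-fold, a size that is uncertain because the CAR values lie below the median. Stab1, which macrophages also make, read 3.66 and 3.19 in CAR cells and 4.90 on the PaS array. The CAR arrays were 0.47 log2 units apart here, less than the gap of either to the PaS array. Stab1 was 2.79-fold lower in CAR cells (−1.48 ± 0.33, SE; limma adjusted p = 0.0451), the call nearest to the threshold among the 3, and its size is uncertain for the same reason. On the PaS array the probe set of Stab2 was brighter than 89.7% of all genes and that of Stab1 than 83.0%; on the CAR arrays Stab2 lay at the 43.7 and 46.3 percentiles and Stab1 at 47.5 and 36.2.

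Emcn encodes endomucin, a sialomucin on the surface of venous, capillary and sinusoidal endothelium, also found on hematopoietic stem cells. It read 2.39 and 2.53 in CAR cells and 5.59 on the PaS array. The CAR values are at the 13.8 and 20.4 percentiles of their arrays and the PaS value is at 91.2, so the groups are far apart. The difference of −3.13 ± 0.28 log2 units (SE; limma adjusted p = 0.0114) passed the test. The CAR values are so dim that its size, 8.78-fold, is uncertain. The spread of Emcn between the CAR arrays was small, with an SD of 0.10 (n = 2).

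Plvap encodes the protein of the diaphragms that span endothelial fenestrae and caveolae, and it is made by sinusoidal and other permeable endothelium. Its values were 3.69 and 3.57 in CAR cells and 2.98 on the PaS array, the reverse of the order seen for the stabilins and Emcn. The difference of 0.65 ± 0.28 log2 units (SE) did not pass (limma adjusted p = 0.172), and its 95% interval ran from −0.07 to 1.37. After quantile normalization of the 3 arrays it was 0.98 and passed (limma adjusted p = 0.0290). Calls grew in general under that setting, with 2636 of all genes higher instead of 1706. No array showed Plvap above the median of all genes, so both groups may be at background. Of the 4 sinusoidal and venous markers, 3 were thus called lower in CAR cells. For Plvap no direction was established, although its interval reaches no further than −0.07 log2 units toward lower in CAR cells.

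The stretches of genome upstream of the 3 called genes are shown because these genes were lower together. Of the 10 markers, 5 have entries in the RefSeq promoter table for build GRCm38.p6 (Emcn, Stab1, Stab2, Cldn5 and Egfl7, the last with 3 starts), which gives 7 windows of 250 bases before a start. Each line below runs 5′ to 3′ on the gene's own strand from 250 bases before the start and ends where the gene's annotated span begins. Capitals mark AGGAAG or its reverse complement CTTCCT, a form of the core bound by ETS factors, which are transcription factors active in endothelium and in blood cells. Other forms of that core were not searched for and are not marked, so a stretch without capitals may still hold one.
Emcn, chr3:137340828-137341061, plus strand: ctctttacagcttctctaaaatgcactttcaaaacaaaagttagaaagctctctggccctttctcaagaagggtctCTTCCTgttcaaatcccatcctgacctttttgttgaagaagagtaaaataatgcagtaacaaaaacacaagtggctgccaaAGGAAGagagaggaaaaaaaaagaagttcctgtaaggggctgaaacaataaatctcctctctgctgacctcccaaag
Stab1, chr14:31168652-31168891, minus strand: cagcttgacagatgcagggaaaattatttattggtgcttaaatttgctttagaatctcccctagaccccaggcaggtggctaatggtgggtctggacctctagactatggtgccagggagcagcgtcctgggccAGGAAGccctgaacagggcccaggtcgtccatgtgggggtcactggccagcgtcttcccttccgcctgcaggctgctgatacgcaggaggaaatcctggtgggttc
Stab2, chr10:87008039-87008192, minus strand: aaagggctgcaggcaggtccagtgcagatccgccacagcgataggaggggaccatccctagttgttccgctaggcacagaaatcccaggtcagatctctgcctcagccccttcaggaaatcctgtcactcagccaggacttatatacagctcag

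The 250 bases before the start held 2 matches to AGGAAG on either strand for Emcn, 1 for Stab1 and 1 for Stab2, the last in the part nearer the start that is not shown. The first Egfl7 window held 3, the second 1 and the other 0, and the Cldn5 window held 0. The motif was thus in 5 of the 7 windows, and 29.5% of all 32851 windows in the table hold it. The GATA core AGATAA and the Sox core ACAATG were in 0 of the 7 windows, against 9.99% and 10.7% of all windows, and the Sox core ACAAAG was in 1, the window of the last Egfl7 start, against 16.5%. No match of a motif overlapped a match of another. Both a called set (Emcn, Stab1, Stab2) and a gene with no call (Egfl7) hold AGGAAG on either strand, and a match is a run of letters, not a measured binding site.

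Pecam1 encodes CD31, the adhesion molecule at the contacts of endothelial cells, which platelets and many leukocytes also carry. It read 4.26 and 3.76 in CAR cells and 4.92 on the PaS array. Both CAR values were lower, and the CAR arrays themselves were 0.50 log2 units apart. The difference of −0.91 ± 0.34 (SE) did not pass (limma adjusted p = 0.126), but after quantile normalization it was −1.27 and passed (limma adjusted p = 0.0198). That setting also called 2831 of all genes lower, instead of 1281. Esam, an adhesion molecule of endothelial tight junctions that is also present on platelets and hematopoietic stem cells, read 3.27 on each CAR array and 3.52 on the array labelled PaS. The groups lay 0.25 log2 units apart (95% interval −0.96 to 0.46; limma adjusted p = 0.564), and all 3 values were below the medians of all genes. Cldn5 encodes claudin-5, the main sealing claudin of endothelial tight junctions. Its values were 3.92 and 3.43 in CAR cells and 3.80 on the PaS array, so that the PaS value fell between them. The difference of −0.12 (95% interval −0.97 to 0.73; limma adjusted p = 0.823) turned to 0.12 with CAR array 1 alone and was −0.36 with CAR array 2 alone. None of these 3 contact and junction markers passed the test, and the intervals of Esam and Cldn5 hold differences in both directions.

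Sox17 and Sox18 encode SoxF transcription factors, Sox17 being needed for arterial identity and Sox18 acting in blood and lymphatic vessels. Sox17 read 2.39 and 1.84 in CAR cells and 3.16 on the PaS array. All of these values were dim, at the 13.7, 7.07 and 24.9 percentiles of their arrays. The difference of −1.05 ± 0.35 log2 units (SE; limma adjusted p = 0.100) did not pass, and it was −0.61 after quantile normalization, which brings the low ends of the arrays together. Sox18 read 4.17 and 3.78 in CAR cells and 4.76 on the PaS array. Its CAR values lay at or just above the median and its PaS value at the 80.3 percentile. The difference of −0.78 ± 0.32 (SE; limma adjusted p = 0.151) did not pass, but after quantile normalization it was −1.12 and passed (limma adjusted p = 0.0260). As for Pecam1, that setting raised the calls over all genes as well. Sox7, the remaining SoxF gene, had a difference of −0.84 that did not pass either (limma adjusted p = 0.125).

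Egfl7 encodes a secreted protein that endothelial cells deposit around growing vessels. It read 4.14 and 3.75 in CAR cells and 4.21 on the PaS array. The values on CAR array 1 and the PaS array were nearly equal, and CAR array 2 was lower. The difference was −0.26 (95% interval −1.06 to 0.53; limma adjusted p = 0.593). Egfl7 is the host gene of the endothelial microRNA miR-126, shown here because its precursor, Mir126a, has a probe set of its own on the array. The capitals are the seed, bases 2 to 8, the part that pairs with targets.
mmu-miR-126a-3p: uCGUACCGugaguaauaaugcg
The Mir126a probe set read 1.59 and 1.42 in CAR cells and 2.15 on the PaS array, at the 2.13, 2.26 and 2.47 percentiles. The difference of −0.65 did not pass (limma adjusted p = 0.174), and at such a level it cannot be told from background.

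**Figure D2:**
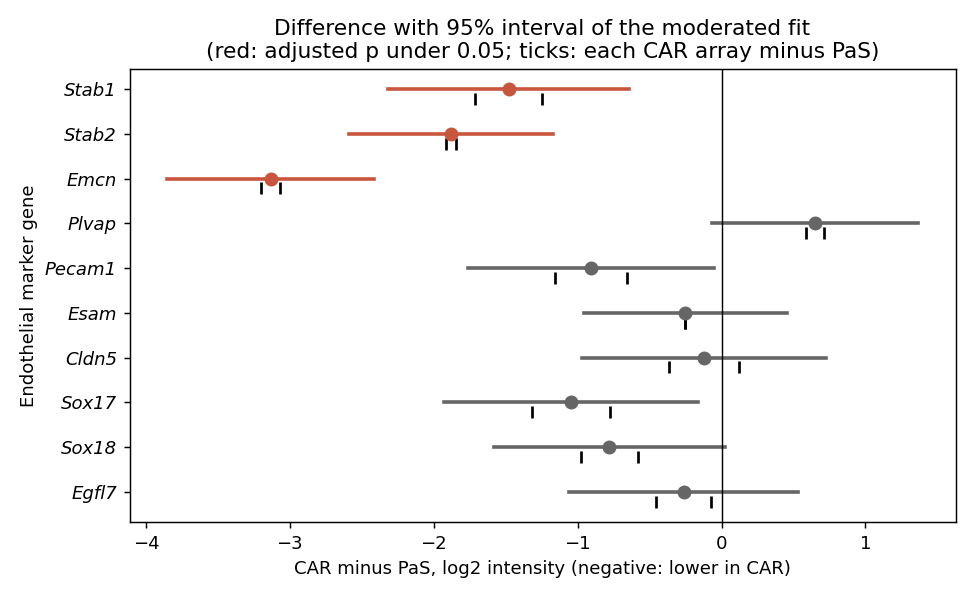
Difference of CAR minus PaS in log2 intensity (horizontal axis) for the 10 endothelial markers (vertical axis); dots are estimates, lines their 95% intervals from the moderated fit, black ticks each CAR array minus the PaS array, and red marks adjusted p under 0.05. The red genes Stab1, Stab2 and Emcn lie at −1.48, −1.88 and −3.13, and Plvap is the 1 marker to the right of 0, at 0.65.

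The CAR arrays differed from each other by a median of 0.39 log2 units over the 10 markers, against 0.27 over all genes. In 7 of the 10 CAR array 2 was the lower. The gap was widest for Sox17, at 0.55, and for Emcn, Stab2 and Esam CAR array 2 was the higher, by 0.14, 0.07 and less than 0.01. With CAR array 1 alone the median difference of the 10 from the PaS array was −0.62, and with CAR array 2 alone it was −1.07. The gap between the CAR arrays was smaller than the difference from the PaS array for all 3 called genes. This adds no support to the calls, because the fit takes its spread from the CAR pair and a call already favours a small gap.

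Other endothelial genes were read from lists that hold none of the 10. Of 22 measured pan-endothelial genes, 7 were lower in CAR cells and 0 higher by limma, beside 6.42% and 8.56% of all genes, with a median difference of −0.99. At an unadjusted p under 0.05 in limma, 14 were lower and 0 higher, beside 18.0% and 17.1% of all genes. Cdh5, the cadherin of endothelial adherens junctions, read 2.91 and 3.18 in CAR cells and 6.28 on the PaS array (−3.24 ± 0.29, SE; limma adjusted p = 0.0116). Fabp4, a fatty acid carrier of capillaries and adipocytes, differed by −2.92, Adgrl4, an adhesion receptor of endothelium, by −2.51 and Cd34, a sialomucin of endothelium and progenitors, by −2.35. The remaining genes called lower were Cav1, Robo4 and Erg. Kdr and Tek, the receptors for VEGF and angiopoietins, differed by −0.73 and −1.04 and did not pass (limma adjusted p = 0.135 and 0.0725). The list was not uniform: 19 genes differed below 0 and 3 above. The 3 were Clec14a, Mmrn2 and Nos3, at 0.62, 0.28 and 0.26. Eng, Icam2, Ecscr and Vwf differed by −0.14, −0.16, −0.20 and −0.30, and none of these passed.

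The list of sinusoidal and venous genes held 13 measured genes, with a median difference of −1.30. By limma 7 were lower in CAR cells and 0 higher, beside 6.42% and 8.56% of all genes. At an unadjusted p under 0.05 in limma, 9 were lower and 1 higher, beside 18.0% and 17.1% of all genes. Dnase1l3, a secreted nuclease of sinusoidal endothelium and macrophages, read 2.39 and 2.10 in CAR cells and 5.96 on the PaS array (−3.71; limma adjusted p = 0.0105). Mrc1, the mannose receptor of sinusoidal endothelium and macrophages, differed by −2.35, Sele, the E-selectin that captures leukocytes, by −2.13, and Gpr182, a receptor of sinusoidal endothelium, by −1.87. Ackr1, Cd36 and Flt4 were the other genes called lower. Lyve1 differed by −0.09, with CAR values of 3.91 and 3.12 on either side of the PaS value of 3.60. Ephb4, the venous ephrin receptor, was the 1 gene of this list with a difference above 0, 0.91, which did not pass (limma adjusted p = 0.114).

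Of 19 arterial genes, 0 were lower in CAR cells and 2 were higher by limma, and the median difference was 0.06. At an unadjusted p under 0.05 in limma, 3 were lower and 4 higher. Of all genes 6.42% were called lower and 8.56% higher, and 18.0% and 17.1% at the unadjusted threshold. The arterial counts lie near those shares. The genes called higher, Nrp1 and Notch1, are not restricted to endothelium: Nrp1, a co-receptor for VEGF and semaphorins, read 8.28 and 8.41 in CAR cells and 5.66 on the PaS array (2.68; limma adjusted p = 0.0130), and Notch1 differed by 1.69. Hey1 and Jag1, a target and a ligand of Notch signalling, differed by 1.41 and 1.10 and did not pass (limma adjusted p = 0.0679 and 0.0597). Dll1, another Notch ligand, and Hey2, a relative of Hey1, went the other way. Dll1 read 3.33 and 3.59 in CAR cells and 4.46 on the PaS array, and Hey2 differed by −0.60. Neither Dll1 nor Hey2 passed (limma adjusted p = 0.0790 and 0.260). Of genes more confined to arterial endothelium, Gja4 and Gja5, which encode connexins, differed by −0.11 and −0.56, Efnb2 by −0.78, Bmx by −0.57 and Dll4 by 0.06, none of which passed. The counts of the sinusoidal and arterial lists were not tested against each other. Over the 54 measured genes of the 3 endothelial lists, 14 were lower and 2 higher, beside 6.42% and 8.56% of all genes. In a short lymphatic list, Flt4 (shared with the sinusoidal list) and Pdpn, podoplanin of lymphatic endothelium and fibroblasts, were lower, 2 of 5 measured genes, while Prox1, the defining transcription factor, differed by −0.53 (limma adjusted p = 0.281) and Reln by −0.48.

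Of 17 measured genes of tight and adherens junctions, 3 were higher in CAR cells and 1 lower, with a median of 0.37. Of all genes 8.56% were called higher and 6.42% lower, and these shares apply to the other lists of this paragraph too. The small counts were not tested against them. Cldn1, a claudin of epithelia, read 8.02 and 8.17 in CAR cells and 4.80 on the PaS array (3.30; limma adjusted p = 0.0113), unlike its relative Cldn5. Ctnnd1, p120 catenin, and Pard3, a polarity protein, differed by 2.38 and 1.84, and Ocln, occludin, was the gene called lower, at −1.38. Cldn12 was unequal in the CAR pair, at 6.34 and 4.95 beside 3.84 on the PaS array, and missed the threshold (limma adjusted p = 0.100). A list of 16 genes set beside the markers, all relatives of them except the scaffold gene Caskin2, had 2 higher (Cldn1 and Caskin2) and 1 lower (Cd34). In it Egfl8, the nearest relative of Egfl7, differed by −0.29 and Jam2, a relative of Esam, by −0.70; neither passed. Of 8 pericyte and smooth muscle genes 1 was higher, Notch3 at 1.59, and 0 lower by limma. At an unadjusted p under 0.05 in limma, 3 were higher and 0 lower, beside 17.1% and 18.0% of all genes.

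**Figure D3:**
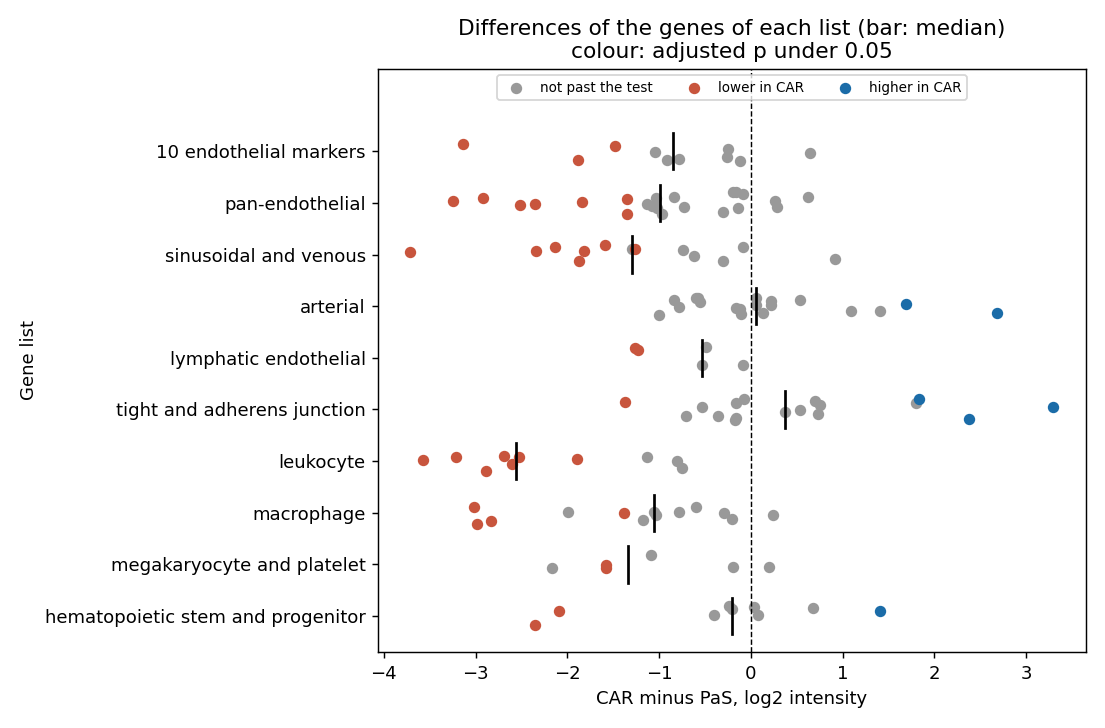
Difference of CAR minus PaS in log2 intensity (horizontal axis) for each measured gene of 10 lists (vertical axis); 1 dot is 1 gene, red and blue mark adjusted p under 0.05 in either direction and black bars are medians. The sinusoidal and leukocyte medians lie at −1.30 and −2.56, and the arterial median lies at 0.06 with no red dot.

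Blood cells also make several of the 10 markers, and their genes were read from 4 lists. Of 10 leukocyte genes 7 were lower in CAR cells and 0 higher by limma, with a median of −2.56. Of all genes 6.42% were called lower and 8.56% higher, shares that apply to each of the 4 lists. Cd53 was lower by the most, at −3.57, with Ptprc, Itgb2 and Coro1a next. The summed intensity of the 10 leukocyte genes was 266 and 299 in CAR cells and 1844 on the PaS array. Of 13 genes of macrophages, which can carry Stab1, 4 were lower and 0 higher (Tyrobp, Fcgr3, C1qc and Cd163), with summed intensities of 258 and 278 against 1275, of which Tyrobp alone gave 774 on the PaS array, while Adgre1, Vsig4 and Spic read at most 3.23 on every array. Of 6 measured genes of megakaryocytes and platelets, which can carry Pecam1 and Esam, 2 were lower (Pf4 and Tubb1) and 0 higher, with summed intensities of 269 and 92.1 against 421, and Ppbp alone ranged from 7.41 to 4.26 between the CAR arrays. Of 9 measured genes of hematopoietic stem and progenitor cells, which can carry Emcn and Esam, 2 were lower (Cd34 and Myb) and 1 higher (Hoxa9), with summed intensities of 151 and 143 against 217. Such sums compare arrays within a list and not the lists with each other. By limma at an unadjusted p under 0.05, 9 leukocyte, 9 macrophage and 3 platelet genes were lower and 0 higher, and 2 stem and progenitor genes were lower and 1 higher, beside 18.0% and 17.1% of all genes. No gene of these lists was listed at 0, but neither was any other probe set on the 3 arrays, so this is no sign of detection. The part of blood cell RNA in the endothelial differences was not tested, and in pooled sorted cells a larger number of endothelial cells and more RNA per cell cannot be told apart.

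**Figure D4:**
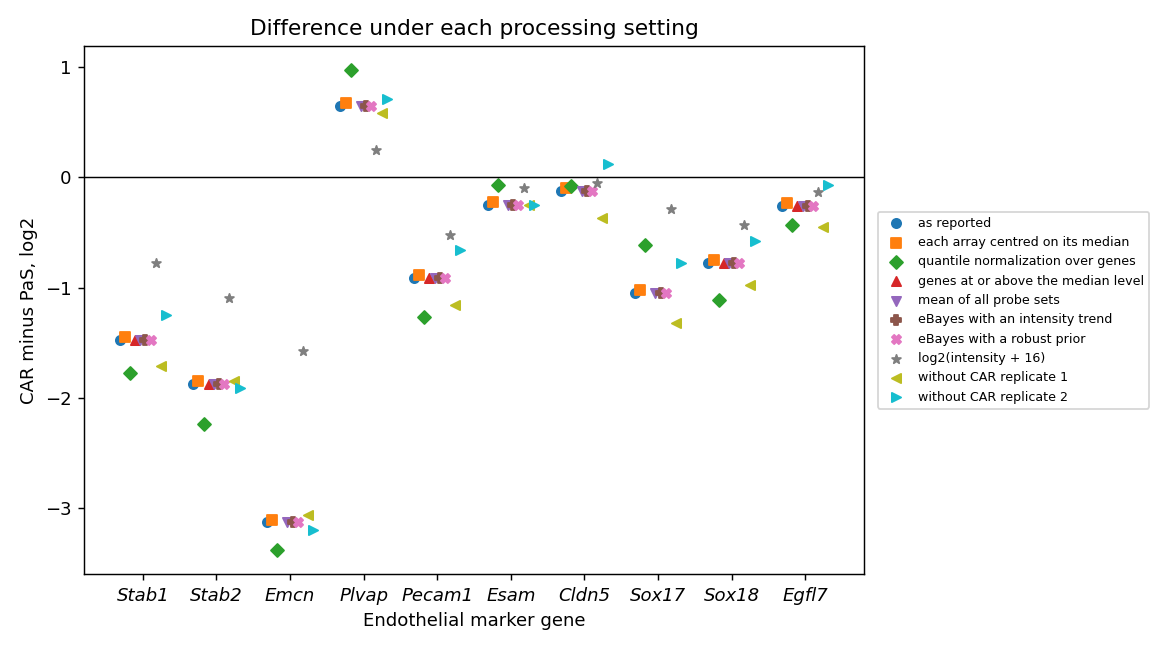
Difference of CAR minus PaS in log2 units (vertical axis) for the 10 endothelial markers (horizontal axis) under each processing setting (symbols). Stab1, Stab2 and Emcn lie at −0.78 or lower under every setting shown that tested them, and Cldn5 crosses 0 with CAR array 1 alone.

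The calls did not rest equally on all settings. Only 5 of the 10 markers (Pecam1, Stab1, Stab2, Sox18 and Egfl7) had a mean at or above the median level of all genes; Emcn did not, because its CAR values are so low. Stab1 and Stab2 reached it through the PaS array, since their CAR values lie below the CAR medians, so a fit among genes at that level adds no support for their calls. Adding 16 to each intensity before taking log2 damps dim genes, and with it the prior degrees of freedom of the fit were 1.76 instead of 4.20. Of all genes, bright or dim, 0 then passed the limma test (3151 higher and 2634 lower at an unadjusted p under 0.05). Cxcl12, a bright gene, differed by 3.18 instead of 3.27 (limma adjusted p = 0.0539). Emcn, Stab2 and Stab1 differed by −1.58, −1.09 and −0.78 (limma adjusted p = 0.0539, 0.0601 and 0.0997). Quantile normalization gave 5 of the 10 lower and 1 higher.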

How the data were processed

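The deposited values are linear signal intensities per probe set, which the authors made with Affymetrix Expression Console and RMA per the submitters' processing notes; their versions and the genome build are not given in the sources used. Per the labels' protocols, cDNA was amplified from picogram to nanogram amounts of total RNA. Log2 was taken with no pseudocount. Of 35556 probe sets, 21789 carried 1 gene symbol, 1621 several (not used) and 12146 were unnamed here; identifiers of 21698 matched the RefSeq gene table (GRCm38.p6), which gave current symbols. Where a gene had several probe sets, the brightest on average was used. CAR and PaS were compared with limma 3.58.1 in R 4.3.3 (lmFit, eBayes, two-sided, no covariate), adjusted over 19938 genes; moderation added 4.20 prior degrees of freedom. The fit was tested on simulated data. The CAR arrays are labelled as replicates of separate mice; the number of arrays limits the precision. The markers, the 13 other gene lists, the motifs and the rule for named genes (the 10 markers, genes of the sorts, and up to 4 genes a list with the largest difference) were chosen with earlier results of these data known. Other list genes that are named were singled out after their values were seen. Promoter and microRNA sequences are RefSeq's. Alternatives were centring, quantile normalization, a filter at the median level, the mean of probe sets, a trend or robust prior, a pseudocount of 16, and leaving out each CAR array.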

Additional observations from a re-analysis of the deposited data

How the results depend on the processing

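No paired analysis was possible, because the CAR arrays and the pooled PaS array come from different mice and a shared replicate number makes no pair. Without CAR replicate 1 or 2, 1 array is left on each side, so only values were computed; the median difference of the 10 markers then ran from −1.07 to −0.62. Of 85 alternative values of the 10 markers, 84 kept their direction, the exception being Cldn5, at 0.12 without CAR replicate 2. Many of these could not change: the trend, robust prior, level filter and mean of probe sets leave each tested marker's difference as it was. Centring adds the same constant to every marker. The count of 84 is therefore no measure of robustness. Emcn, Stab1 and Stab2 kept their calls wherever they were tested except with the pseudocount. Quantile normalization gave 5 markers lower and 1 higher, 25 and 5 genes of the endothelial lists, and 2831 and 2636 of all genes, so that 51.8% of calls were lower instead of 42.9%. At or above the median level, 8 genes of the endothelial lists and 510 of all genes were lower, 19.8% of calls; this filter uses the mean of 2 CAR arrays and 1 PaS array, so the difference itself bears on which genes pass (the median over all genes moved from −0.10 to 0.37, and Emcn dropped out). The intensity trend gave 52.1%. In the endothelial lists 4 genes were higher after centring and 4 with the robust prior. With the pseudocount of 16 limma made 0 calls of markers, endothelial lists and all genes in either direction (smallest adjusted p = 0.0539), while 2634 genes were lower and 3151 higher at an unadjusted p under 0.05, among them 3 markers lower, and the markers' median was −0.36. The cause was not tested. No detection calls were used, so the sizes of differences against values near or below the median are uncertain.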
